A study of Mus musculus with 2 samples.

Results

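The cytosolic ribosome is built from ribosomal RNA and ribosomal proteins, named Rpl for the large subunit and Rps for the small subunit. Members were chosen by gene symbol alone (Rpl or Rps with a number and, where present, the letter a, l or x, together with Rplp0, Rplp1, Rplp2 and Rpsa). The rule itself uses no measured value, but it was set with earlier results of these data known. Of 84 mouse gene symbols that match this rule, 46 had at least 1 probe set on the array annotated to that gene and to no other, and these 46 genes with their 98 probe sets are described here, out of 18193 genes and 45037 probe sets in all. They comprised 24 genes of the large and 22 of the small subunit. A further 29 symbols were listed only on probe sets shared with other genes, and 9 had no probe set listed in the annotation used. These genes, among them Rpl3, Rpl5, Rpl10, Rpl10l, Rpl36al, Rplp1 and Rps27a, were not analysed here as single genes.

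Mouse primary T cells were stimulated with antibodies against CD3 and CD28, which stand in for antigen and costimulation. Cells of the second group received the same stimulation and 50 ng/ml triptolide, a plant diterpenoid that binds the XPB subunit of TFIIH and blocks transcription by RNA polymerase II. Purified cells of both groups were kept in culture for 18 h. Total RNA of each group was hybridised to 1 Affymetrix array. There was 1 array per group, so no p-value, SD or standard error between cultures can be given, and every value below compares 2 arrays. The sources used here do not give how long triptolide acted or how many mice gave cells.

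Making ribosomes is one of the largest costs of a T cell that prepares to divide. Ribosomal protein genes are transcribed by RNA polymerase II, and their mRNAs are abundant and, in most cells, stable. They begin with a terminal oligopyrimidine (TOP) tract, a C followed by further pyrimidines, through which the kinase mTOR and the RNA-binding protein LARP1 set how strongly they are translated.

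Genes were read as the signal on the stimulated array, the signal on the triptolide array and the log2 ratio of triptolide over stimulated. Signals under a background floor of 118, set from chemosensory receptor genes, were raised to it first. The labelled cell type was checked against its markers, and all 7 T cell markers with a probe set of their own lay above the floor. Of the markers of other cells, 3 of 4 for B cells, 3 of 5 for myeloid cells, 1 of 2 for natural killer cells and 0 of 2 for erythroid cells did so on at least 1 array. The summed signal of the T cell markers was 47173 without and 35991 with triptolide. That of the B cell markers was 966 and 1165, that of the myeloid markers 596 and 889, and that of the natural killer cell markers 497 and 993. T cell markers did not move together, and neither did B cell markers. Log2 ratios ran from -1.34 (Cd2) to 0.46 (Cd3e) in T cell markers and from -0.71 (Ms4a1) to 0.95 (Cd79a) in B cell markers. In the 3 detected myeloid markers they were all above 0, from 0.08 (Csf1r) to 1.13 (Lyz2). Lyz2 was above the floor only with triptolide, which fixes its direction. Pax5, Itgam, Cd14, Ncr1, Hba-a1 and Alas2 were under the floor on both arrays. The part of these cells in the ribosomal protein values was not tested. In bulk RNA, fewer cells of a type and less RNA per cell cannot be told apart. Over all genes the median log2 ratio was -0.16, so a value near that mark lay at the middle of the array.

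Start regions of members that the results turn on are shown first, because a pyrimidine tract at the start is what sets these mRNAs apart from most others. Sequences are from RefSeq, build GRCm38.p6, and run from 50 bases before to 30 bases after an annotated start. Capitals mark the longest unbroken run of C and T on the gene's own strand, or the first of them where runs are equally long. Rps24 lies at chr14:24490703-24490782 on the plus strand (the second of 2 annotated starts) and had the highest ratios over several bright probe sets. Rps6, at chr4:86857338-86857417 on the minus strand, was below 0 on its measured probe set and on all those it shares with a pseudogene. Rps27 at chr3:90213619-90213698 (minus strand), Rps25 at chr9:44407664-44407743 (plus strand) and Rpl12 at chr2:32961662-32961741 (plus strand) were the members at least 2-fold lower. Rpl35 at chr2:39005102-39005181 (minus strand) had 5 bright probe sets with nearly equal ratios.
Rps24: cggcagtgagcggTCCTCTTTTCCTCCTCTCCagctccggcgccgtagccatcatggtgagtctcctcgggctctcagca
Rps6: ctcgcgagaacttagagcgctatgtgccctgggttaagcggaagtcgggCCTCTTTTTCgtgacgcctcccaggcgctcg
Rps27: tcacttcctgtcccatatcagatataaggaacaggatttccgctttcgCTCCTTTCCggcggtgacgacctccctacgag
Rps25: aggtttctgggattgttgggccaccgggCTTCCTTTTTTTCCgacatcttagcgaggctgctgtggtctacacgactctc
Rpl12: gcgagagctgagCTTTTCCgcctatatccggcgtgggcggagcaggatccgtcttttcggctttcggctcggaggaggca
Rpl35: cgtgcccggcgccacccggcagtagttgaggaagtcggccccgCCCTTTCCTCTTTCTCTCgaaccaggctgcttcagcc

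In Rps6, Rps27 and Rpl35 the marked run spanned the annotated start itself, and in Rps24, Rps25 and Rpl12 it lay before it. The Rpl12 window also held an unmarked run of the same length (tcttttc, 7 bases) just after the annotated start. Promoters were found for 40 of the 46 members, with 47 starts. A run of at least 8 pyrimidines stood in 57.4% of these windows and in 30.4% of all 32851 windows of the same length. The letters CTTTCC were found on either strand in 23.4% of member windows against 7.24% of all, and CTCTTT, which overlaps it in some promoters, in 14.9% against 6.2%. The letters CCGGAAG, the core that ETS factors bind, stood in 19.1% against 4.77%, and TATAAA in 4.26% against 4.37%. The motifs were chosen with the values known, and a match is a description, not a site. Windows of members that were lower and of members that were not both held long runs (14 bases in Rps25 and 18 in Rpl35).

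With triptolide, most ribosomal protein genes as read on their brightest probe sets had log2 ratios close to 0. Most of these probe sets lay near the top of the signal range, where none of the 77 probe sets of any gene with a mean signal of at least 25000 differed by 2-fold. Of the 77, 59 were the members' own and 18 of other genes. How far the height of the signal itself narrowed the ratios was not tested. Of the 46 members, 44 were above the floor on at least 1 array. Of these, 1 was at least 2-fold higher and 3 were at least 2-fold lower, where 5.63% and 12.5% of all 10968 detected genes were. The higher one (Rpl39l) was above the floor only with triptolide, which fixes its direction. The ratio was below 0 in 15 of the 44 members and in 60.2% of all detected genes. The median log2 ratio of the members was 0.04 (quartiles -0.05 and 0.21), against -0.16 (quartiles -0.62 and 0.27) over all detected genes. The median lay at 0.22 after centring both arrays on the median of the measured probe sets, at 0.06 after quantile normalization and at -0.17 after scaling on 9 housekeeping genes. Its direction against 0 thus depends on the scaling, while it stayed above the median of all genes in each of these settings (-0.0021, 0.0050 and -0.34).

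The brightest probe sets of the members fell into separate classes of signal with none between. In 34 members the brightest probe set had signals between 24520 and 52293, close to the highest signals in the table (52541 and 59417). In 10 members it lay between 113 and 2946, and in 2 it was under the floor on both arrays. None of the 34 bright members differed by 2-fold, and their ratios ran from -0.27 to 0.41 with a median of 0.04. In 29 of the 34 the ratio lay within 0.25 of 0, with 23 above and 11 below 0. Over bright and dim probe sets together, the share above 0 differed by probe set suffix. Of the members' detected probe sets, 30 of 38 ending in _x_at were above 0 (median 0.13), whose probes may also bind other transcripts. Of those ending in _a_at 14 of 25 were above 0 (median 0.04), and of those in plain _at 11 of 21 (median 0.01). The suffixes were not matched for signal. Of the 21 plain _at sets 15 had a mean signal under 3000, against 5 of the 38 _x_at sets. The bright plain _at sets had ratios of 0.21 (Rpl19), 0.19 (Rplp0), 0.15 (Rps15), 0.09 (Rpl22), 0.01 (Rpsa) and -0.04 (Rpl27). Without _s_at and _x_at probe sets the median of the detected members was 0.005.

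**Figure D1:**
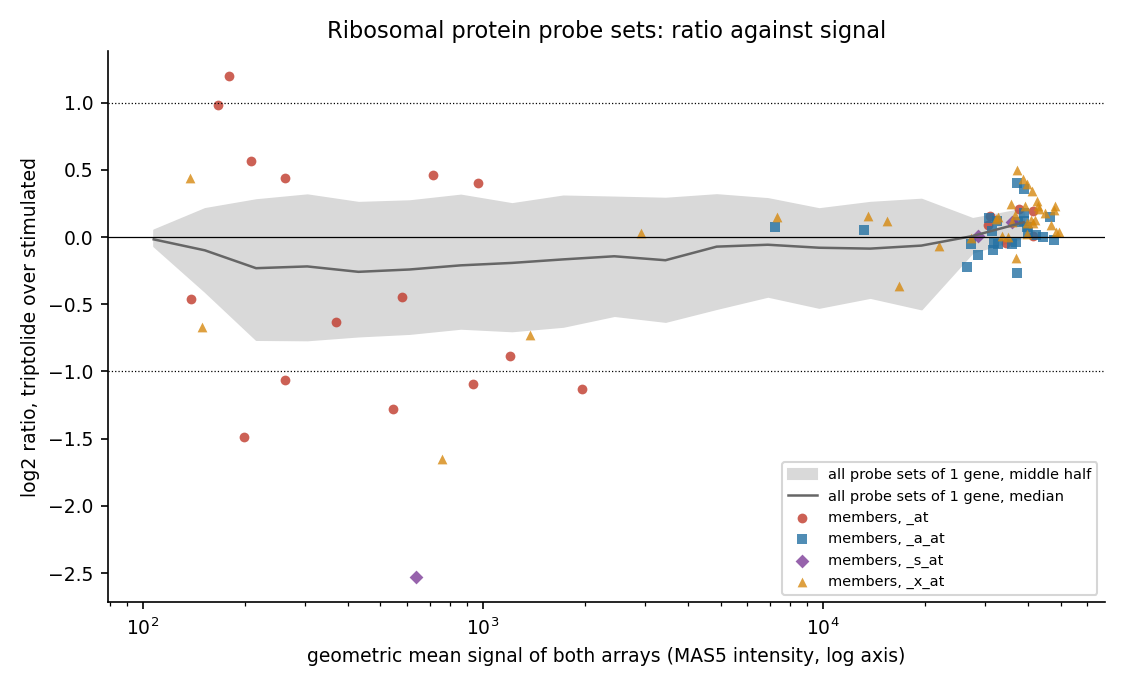
Log2 ratio (triptolide over stimulated) of each detected ribosomal protein probe set against its geometric mean signal on both arrays (log axis), by probe set suffix, with the running median and quartile band of all probe sets of 1 gene in grey. The 64 members' probe sets at or above a signal of 10000 stay between -0.36 and 0.50, whereas the 21 under 3000 spread from -2.53 to 1.2.

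Over all 87 detected probe sets of members, 1 was at least 2-fold higher and 7 were at least 2-fold lower. The shares over 19209 detected probe sets of 1 gene were 5.69% and 12.8%. The higher one (of Rpl39l) and 1 of the 7 lower ones (of Rps9) were above the floor on only 1 array, which fixes their direction. They stay in the counts here, as do such probe sets of other genes. All 8 members' probe sets past 2-fold had a mean signal under 3000. In that range 7 of 21 members' probe sets (33.3%) were at least 2-fold lower, against 13.1% of all such probe sets, while 1 (4.76%) was at least 2-fold higher against 5.77%. The share below 0 was 61.9% in the members and 61.3% in all. The members' 7 probe sets at least 2-fold lower became 4 after centring and after quantile normalization and 8 on housekeeping scaling. The difference in share was not tested. In the 2 probe sets of members between 3000 and 10000 (1 each of Rpl7 and Rpl13a) neither differed by 2-fold, where 5.65% of all in that range were higher and 11% lower. At or above 10000 none of 64 differed by 2-fold, against 0.733% higher and 2.56% lower over all 273 probe sets of that range. Over the 209 of other genes alone it was 0.957% higher and 3.35% lower. The signal classes were chosen after the values were seen.

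The spread of log2 ratios was narrower at high signal in members and in other genes. Over probe sets with a mean signal of at least 25000, the SD of the log2 ratio was 0.15 in 59 probe sets of members and 0.30 in the 18 of other genes. In the class from 10000 up it was 0.16 and 0.53. In 18 members with several measured probe sets, the SD between the brightest pair was 0.10 per probe set, against 0.49 in 3733 genes of the whole array. These pairs were not matched for signal, and a brightest pair leaves out dimmer probe sets such as that of Rpl22 (log2 ratio -2.53). The SD covers probe behaviour, not the variation between cultures.

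Among proteins of the large subunit, those of the stalk that recruits translation factors were slightly above 0. Rplp0, which anchors the stalk, had a signal of 38910 without and 44522 with triptolide (log2 ratio 0.19). Its partner Rplp2 went from 44294 to 49242 (0.15). Rpl12, which forms the stalk's base with Rplp0, was read only on a dim probe set and went the other way, from 1365 to 640 (2.13-fold lower). These ratios are all from single probe sets, and Rpl12 was 1 of the 3 members at least 2-fold lower.

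Around the peptidyl transferase centre, Rpl4 went from 44417 to 44390 (log2 ratio -0.00) and Rpl8 from 29972 to 27382 (-0.13). Rpl11, which with Rpl5 and 5S rRNA can bind MDM2 when ribosome assembly is disturbed, had signals of 28665 and 24520 (-0.23). Rpl7a had the lowest ratio of all bright members, with 40829 and 33937 (-0.27). Each rests on a single probe set, and housekeeping scaling alone moved the members' median from 0.04 to -0.17.

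Proteins of the peptide exit tunnel and its rim lay mostly just above 0. Rpl35 was read on 5 bright probe sets with log2 ratios from 0.14 to 0.23, all above 0, and the brightest went from 42324 to 47925. Rpl19 went from 35264 to 40674 (0.21) and Rpl38, known for its effect on Hox mRNA translation, from 47959 to 49122 (0.03). Rpl39, a very small protein that lines the tunnel, was read on a dim probe set at 608 and 838 (0.46). Of the 5 bright members of this group 4 were above 0, with a median of 0.11.

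Rpl22, an RNA-binding protein required for the development of alpha-beta T cells, gave the widest disagreement of any member. Its bright probe sets had signals of 34567 and 37268 (log2 ratio 0.11) and of 29670 and 31547 (0.09). Its dim probe set went from 1524 to 264 (5.78-fold lower). The bright and the dim readings of this gene differ by 2.63 on the log2 scale, so no single direction is given for Rpl22.

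Rpl41, a very short basic peptide, showed a like division. Its bright probe sets went from 48975 to 50326 (log2 ratio 0.04) and from 22442 to 21475 (-0.06), and its dim ones from 1342 to 426 (3.15-fold lower) and from 460 to 297 (-0.63). In Rpl37a, a zinc-binding protein, the bright sets gave 0.21 and 0.11 and the dim set, with signals of 1774 and 1070, gave -0.73. Rpl13a, which also acts in translational silencing of inflammatory mRNAs, had 4 probe sets between -0.05 and 0.16, none of them dim. Probe sets of a member thus lay close together where none was dim.

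**Figure D2:**
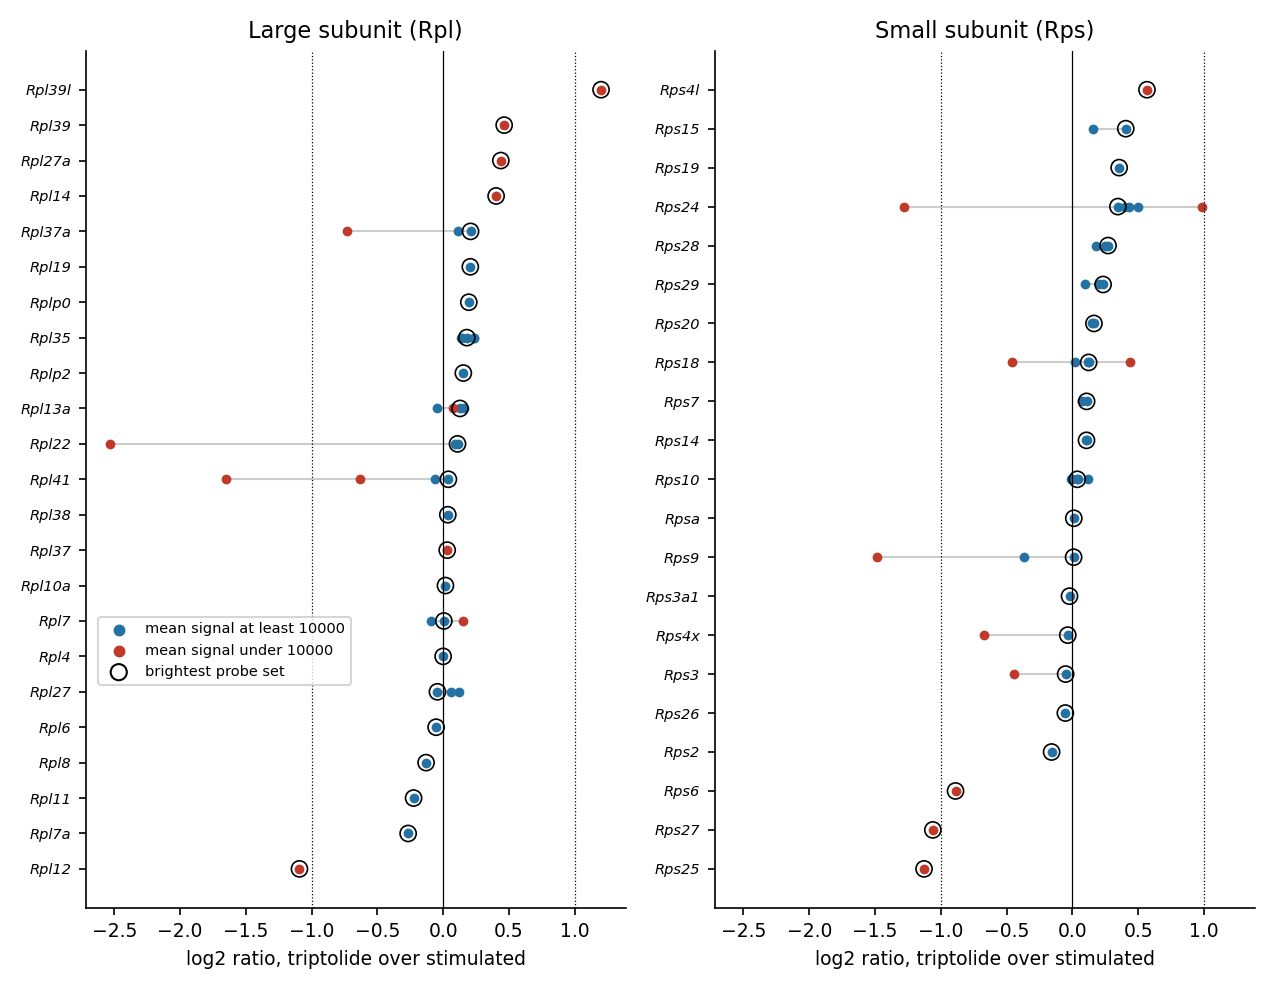
Log2 ratio (triptolide over stimulated) of every detected probe set of each member, ordered by the brightest probe set (black ring), for the large subunit (left) and the small subunit (right), with probe sets of a mean signal of at least 10000 in blue and dimmer ones in red. Blue points lie between -0.36 and 0.50, and the points beyond 2-fold (dotted lines at -1 and 1) are all red.

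In the small subunit, several proteins of the head, the part that swivels as tRNAs move through, had ratios above 0. Rps15, which lies near the decoding site, went from 32416 to 42942 (log2 ratio 0.41) on its brightest probe set and from 29433 to 32764 (0.15) on the other. Rps19, the gene most often mutated in Diamond-Blackfan anaemia, a failure of red cell production, went from 34520 to 44166 (0.36) on its only probe set. Rps28 had 3 probe sets from 0.18 to 0.27 and Rps29 had 3 from 0.09 to 0.23.

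Not all of the head followed. Rps10 had 5 bright probe sets from -0.01 to 0.12, and Rps3, which lines the mRNA entry channel, went from 36712 to 35427 (log2 ratio -0.05). The dim probe set of Rps3 went from 673 to 494 (-0.45). Of the 8 bright members of the head 7 were above 0 (median 0.20), against 5 of 9 (median 0.01) in the body and platform. Ranges overlapped (-0.05 to 0.41 and -0.16 to 0.35), and the difference was not tested. The dim members are outside these counts and lay lower, with Rps25 of the head at -1.13, Rps27 of the body at -1.06 and Rps6 of the body at -0.89.

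Rps24, another gene mutated in Diamond-Blackfan anaemia, had the highest ratios over several bright probe sets. Its 4 bright probe sets had signals from 31413 to 36509 without and from 44383 to 46406 with triptolide, with log2 ratios from 0.35 to 0.50. All 4 lay above the upper quartile of the members' bright probe sets (0.18). Its dim probe sets disagreed with them and with each other, since one went from 848 to 350 (2.42-fold lower) and the other from 12.6, under the floor, to 234 (at least 1.98-fold higher). The bright sets of Rps24 all carry the suffix _x_at, which marks probes that may also bind other transcripts. Without such sets the gene is read on the dim one, at -1.28.

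Rps6, the protein that S6 kinases phosphorylate downstream of mTOR, had the lowest ratio among members within 2-fold. Its own measured probe set went from 1638 to 885 (1.85-fold lower), and the other was under the floor on both arrays. A further 9 probe sets list Rps6 together with its pseudogene Rps6-ps4 and are assigned to neither. All 9 had ratios below 0, from -1.28 to -0.11 with a median of -0.68, and 3 were at least 2-fold lower. The measured probe set of Rps6 and these 9 thus all had ratios below 0.

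Rps25, which some viral RNAs need to start translation, was read on 1 dim probe set and went from 2901 to 1328 (2.18-fold lower). Rps27, a zinc finger protein, went from 378 to 181 (2.09-fold lower), also on 1 dim probe set. With Rpl12 these were the members at least 2-fold lower, and none of the 3 remained so after centring (-0.95 for Rps25, -0.91 for Rpl12, -0.88 for Rps27) or quantile normalization (-0.94, -0.89 and -0.83). All 3 kept a ratio below 0 there. On housekeeping scaling all 3 remained at least 2-fold lower (-1.34 for Rps25, -1.30 for Rpl12, -1.27 for Rps27), and Rps6 joined them (-1.10). Of the 10 members read only on dim probe sets, 8 are also listed on probe sets shared with other genes.

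Probe sets shared with other genes were read as a group. Of 110 probe sets that list a member beside other genes, 79 had a mean signal of at least 10000, and none of these differed by 2-fold (range -0.68 to 0.41, median 0.01). Of the 22 detected ones under 3000, 4 were at least 2-fold lower, 1 was at least 2-fold higher and 17 were below 0, with a median of -0.34. Over all probe sets of 1 gene in that range, 13.1% were at least 2-fold lower, 5.77% at least 2-fold higher and 61.3% below 0. These values are not read as single genes.

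In the rest of the small subunit the brightest probe sets lay close to 0. Rpsa, also known as the precursor of a laminin receptor, went from 41243 to 41547 (log2 ratio 0.01). Rps3a1 went from 48130 to 47403 (-0.02), and Rps2 from 38972 to 34926 (-0.16), the lowest among the brightest probe sets of bright members in the subunit. Rps9 had bright ratios of 0.01 and -0.36 and a dim probe set that went from 332 to 98.1, under the floor (at least 2.81-fold lower). Over the bright members, the small subunit had a median of 0.11 and the large subunit one of 0.03 (17 genes each).

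Where a member had both bright and measured dim probe sets, the dim ones had the lower ratio. This held for all 5 members with a measured dim probe set (Rpl22, Rpl37a, Rpl41, Rps3 and Rps24), with a median difference of -1.13. Among 60 other genes with such a pair, the dim probe sets had the lower ratio in 29 (48.3%), with a median difference of 0.01. A difference of at least 2-fold downwards was seen in 3 of the 5 members and in 13.3% of the other genes. Dim probe sets above the floor on only 1 array are left out here, since passing through 1 array fixes their direction. Among these, the set of Rps4x (189 and 93.0), that of Rps9 and 1 of Rps18 (163 and 106) were lower with triptolide, and 1 of Rps18 (117 and 161) and 1 of Rps24 were higher. The comparison was set up after the values were seen, and what the dim probe sets detect was not tested.

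**Figure D3:**
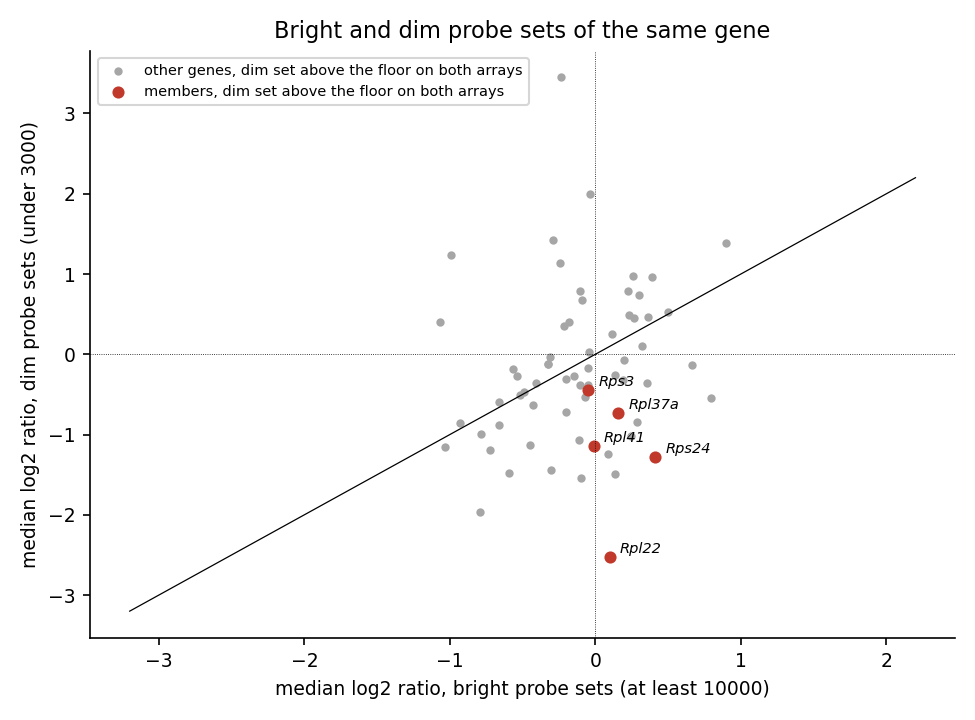
Median log2 ratio of the dim probe sets (mean signal under 3000) against that of the bright ones (at least 10000) of the same gene, for ribosomal protein genes (red) and 60 other genes (grey), with measured dim probe sets only and the line of equal ratios. All 5 ribosomal protein genes lie below the line, while the other genes lie on both sides, 29 of them below.

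The copies known for restricted expression were read at low signals. Rpl3l, typical of muscle, had signals of 16 and 26.7, under the floor. Rpl39l, known from testis, went from 112.6, under the floor, to 271.9 (at least 2.30-fold higher), the only member at least 2-fold higher and close to background on both arrays. Rps4l, a near-copy of Rps4x, had 171 and 254 (log2 ratio 0.57). Rps16 was read only on a probe set under the floor (4.4 and 4.7), although it is also listed on shared probe sets.

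The remaining dim members lay above 0. Rpl14 went from 842 to 1112 (log2 ratio 0.40) and Rpl27a from 226 to 306 (0.44). Rpl37 had 2885 and 2946 (0.03). Together with Rpl39, Rpl39l and Rps4l, 6 of the 10 members read only on dim probe sets were above 0 and 4 below.

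The members' probe sets held a larger part of the signal with triptolide. Their sum was 7.42% of the summed signal of all probe sets without triptolide and 8.62% with it. This is a share of signal and not of RNA, since probe sets respond differently. The median log2 ratio over all genes was -0.16, and that of the members 0.04.

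Genes that work with ribosomal proteins were compared beside them in lists, each gene counted on its brightest probe set. For the counts in each list, the shares over all 10968 detected genes were 5.63% at least 2-fold higher and 12.5% at least 2-fold lower. Of 11 detected elongation and termination factors, Etf1 was at least 2-fold higher and Eef2k at least 2-fold lower. The list's median was -0.16, equal to that of all genes. Etf1, which releases the finished peptide at stop codons, went from 2709 to 5434 (2.01-fold) on its brightest probe set, but its 5 measured probe sets ran from -0.11 to 1.0. Eef2k, the kinase that inhibits elongation factor 2, went from 342 to 32.0, under the floor (at least 2.89-fold lower). Eef1a1, the main elongation factor 1 subunit, had a log2 ratio of -0.09.

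The lists were not matched for signal, and other mRNAs known to carry a TOP tract had a lower median ratio than the ribosomal proteins. Of 19 detected, none differed by 2-fold on its brightest probe set, and 13 were below 0 with a median of -0.31. Another measured probe set was more than 2-fold lower in Npm1 (-1.19) and in Ybx1 (-1.49). Eef2, which moves the ribosome along the mRNA, was lowest (27359 to 14468, log2 ratio -0.92), and the histone chaperone gene Nap1l1 was highest (9714 to 13372, 0.46). Tpt1 had 0.13, Pabpc1 0.01 and Npm1, a nucleolar protein of ribosome assembly, -0.80. Fau, whose product contains the ribosomal protein S30, is part of this list and had 0.14 (33580 to 36898). As deposited, the ribosomal proteins' median was 0.20 above that of all genes and this list's was below it, a difference that was not tested. After quantile normalization the ribosomal proteins' median was 0.06 and that of all genes 0.0050, so the size of the gap depends on the scaling. Several elongation factors belong to both lists.

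Among regulators of ribosomal protein mRNA translation, 15 genes were detected, with a median of -0.14. The only one beyond 2-fold was Eif4ebp1, which encodes a repressor of cap-dependent translation that mTOR inactivates, with signals of 3632 and 570 (6.37-fold lower) and ratios of -2.67 and -3.40 on its 2 measured probe sets. Larp1 went from 4082 to 2254 (log2 ratio -0.86) and Mtor from 1134 to 718 (-0.66). Rheb, the small GTPase that activates mTOR, was highest (2324 to 3968, 0.77).

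Of 18 detected chaperones of ribosomal proteins and factors of ribosome quality, none differed by 2-fold on its brightest probe set (median -0.19). Another measured probe set of Hbs1l had a log2 ratio of -1.13. Sbds, a factor of large subunit maturation, was highest (1059 to 1748, log2 ratio 0.72) and Rpf2, which helps to place the 5S particle, was lowest (1218 to 794, -0.62). Both are within 2-fold, and the measured probe sets of Rpf2 ran from -0.62 to -0.04. The list's median was close to that of all genes.

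**Figure D4:**
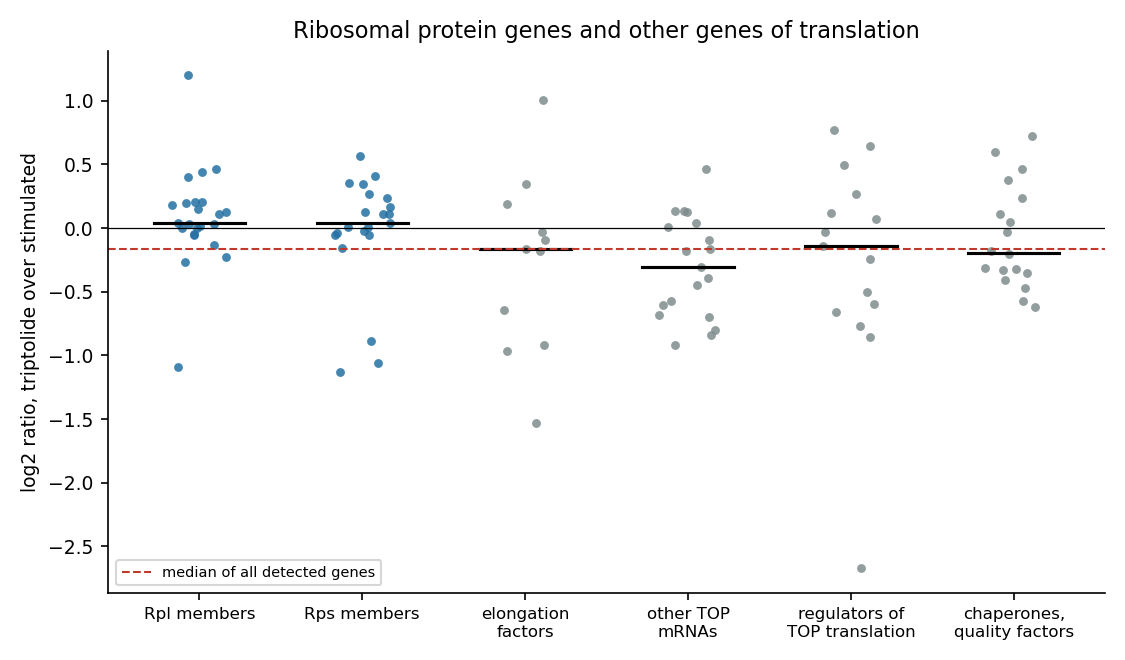
Log2 ratio (triptolide over stimulated) of each detected gene on its brightest probe set, for the large and small subunit members (blue) and 4 lists of other translation genes (grey), with black bars at the list medians and a dashed line at the median of all detected genes (-0.16). The member bars lie at 0.04 in both subunits, above the dashed line, and the TOP mRNA bar at -0.31 lies below it. The lists are not matched for signal.

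Near-copies that the rule leaves out gave mixed values. Rps27l, a close relative of Rps27 and a known p53 target, went from 3971 to 9830 on its brightest probe set (2.48-fold higher), and all 3 of its probe sets were between 2.39- and 3.07-fold higher. The dim probe set of Rps27 itself was 2.09-fold lower, as given above. Rpl22l1, a relative of Rpl22, had a log2 ratio of 0.09 (16861 to 17940). Rpl7l1, a relative of Rpl7, had signals of 1408 and 3597 on its brightest probe set (2.55-fold higher) and of 1977 and 2233 on another (log2 ratio 0.18). Its remaining probe set went from 116.8, under the floor, to 647.7 (at least 5.47-fold higher). Rpl7 itself had 3 probe sets from -0.09 to 0.15. Rps27l was picked after its values were seen.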

How the data were processed

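Values are linear signal intensities, 1 for each probe set, as the authors deposited them. They come from MAS5, per the submitters' processing notes. The sources used here give neither its version nor its scaling target in words. The values themselves hold a trace of scaling in the 100 probe sets that open the list. Their trimmed mean, which leaves out extreme values, equalled 2000 without triptolide and 2000 with it. The arrays as deposited were thus level on these probe sets. How this bears on the median log2 ratio of all genes was not tested. The single array per group limits the precision.

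Of the 45037 probe sets, 34945 had 1 gene symbol, 932 several and 9160 none. Symbols were updated through RefSeq (GRCm38.p6) for 34741. The floor was the 95th percentile of 87 chemosensory receptor probe sets, the higher of both arrays. A gene was represented by its brightest probe set (mean log2 signal of floored values). Detected means above the floor on at least 1 array, measured on both. Genes were counted at 2-fold.

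Named were members at least 2-fold, the 6 highest and 6 lowest measured, the 5 with the widest range, those under the floor and a fixed set by role, and of each list the 2-fold genes and its extremes. Rps2, Rps9, Rps10, Rps28, Rps29, Rpl35, Rps3a1 and other genes named beside these were picked after their values were seen. Members and lists were chosen with earlier results of these data known. The calculation was tested on simulated data with Python 3.11.15, pandas 2.3.3 and numpy 2.4.6. Alternatives were 3 scalings, 2 floors, a pseudocount of 100, other probe set rules, a limit on signal, a 1.5-fold rule, and other members.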

Additional observations from a re-analysis of the deposited data

How the results depend on the processing

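With 1 array per group, no result has a check between cultures. No paired analysis was possible because each group holds 1 array and the labels carry no replicate numbers. Member genes at least 2-fold lower numbered 0 after centring and after quantile normalization, 1 with a pseudocount of 100 in place of the floor and 5 without _s_at and _x_at probe sets. On housekeeping scaling they numbered 4. Those at least 2-fold higher numbered 0 with the pseudocount and with a limit of 4 times the floor, and 2 with Rpl22l1, Rpl7l1 and Fau added (Rps27l not included). Member probe sets at least 2-fold lower numbered 4 after centring and after quantile normalization, 8 on housekeeping scaling, 11 at 1.5-fold and 12 with shared probe sets added. Those higher numbered 2 after quantile normalization, with the floor at the 75th percentile, at 1.5-fold and with shared probe sets, 0 with the signal limit and 3 with Rpl22l1, Rpl7l1 and Fau added. The members' median was 0.22 after centring and -0.17 on housekeeping scaling. That scaling left 0 elongation factors higher and 3 lower, 3 TOP mRNAs lower and 2 regulators lower. Taking the median over probe sets left 0 elongation factors higher. With 1 probe set per gene the members held 8.34% and 9.66% of the signal. Lower genes made up 68.9% of all 2-fold differences as deposited, 53.6% after centring, 50.9% after quantile normalization and 82.5% on housekeeping genes. The cause of these shifts was not tested beyond the settings' own construction. Of 214 values of single members under alternatives, 211 moved by less than 0.49. This limit is the SD between probe sets of the whole array, against 0.10 in the members. Centring and housekeeping scaling shift all measured members by 1 constant under the limit, so those values could not pass it. Members with 1 probe set cannot move when the median over probe sets is taken. The 211 is thus no measure of stability. Among the 214 values the sign differed in 43, of which 19 on housekeeping scaling, 9 after centring and 7 after quantile normalization, and in none of the members at least 2-fold. The 3 that moved further also differed in sign, without _s_at and _x_at probe sets: Rpl41 from 0.04 to -0.63, Rps24 from 0.35 to -1.28 and Rps9 from 0.01 to -1.49. The dim minus bright difference was -1.13 with stricter limits on bright and dim signals, -0.95 after quantile normalization and -0.76 with dim sets above the floor on 1 array counted, whose direction that rule fixes, all added after seeing the data.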
